A study of Homo sapiens with 9 samples.

Results

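The 10 genes described here encode the CDK inhibitors of the CIP/KIP family (CDKN1A, CDKN1B and CDKN1C) and the INK4 family (CDKN2A, CDKN2B, CDKN2C and CDKN2D), and the pocket proteins of the RB family (RB1, RBL1 and RBL2). They are the members of these families, out of 61544 genes listed, and all 10 were among the 14727 genes abundant enough to be tested. RNA came from HMC3 cells, a wild-type human microglial line immortalized with SV40 T antigen, cultured for 6 days in 3 groups of 3 libraries each. VEH cells received the solvent DMSO alone. SLO cells received 10 µM SBI-0206965, 1 µM O-151 and 1 µM Lopinavir, which block autophagy, a DNA glycosylase and Lamin A maturation. SLO ½ cells received 5, 0.5 and 0.5 µM of the same compounds. The design therefore asks how each dose of the cocktail, used as an inducer of senescence, changed these transcripts relative to solvent, and whether the doses differed from each other.

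Progression from G1 into S phase depends on cyclin-dependent kinases (CDKs), which phosphorylate the RB family proteins and thereby release E2F transcription factors. INK4 proteins bind CDK4 and CDK6, whereas CIP/KIP proteins bind a wider range of cyclin-CDK complexes, so both families can hold RB proteins in the E2F-binding state. CDKN1A and CDKN2A are the CDK inhibitors most often used as senescence markers. All 3 groups share a limit of the line, since SV40 large T antigen binds the RB family proteins. The paper states that this immortalization disrupts the p53 pathway as well as the RB pathway. A transcript level does not report on how much of the RB family proteins was active.

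Promoter sequences are given for CDKN1A, which had the largest fold change of the 10 genes in SLO, for CDKN1B and CDKN2B, which moved in opposite directions at the 2 doses, and for RBL1, which passed the test in no comparison. Each is the 250 bases before a RefSeq transcription start in GRCh38.p14, written 5′ to 3′ on the strand of the gene. Capitals mark matches to the GC box letters GGGCGG or, in RBL1, to E2F letters (TTTCCCGC, TTTCGCGC, TTTGCCGC or TTTGGCGC), each searched on both strands.
CDKN1A promoter, chr6:36678464-36678713, plus strand: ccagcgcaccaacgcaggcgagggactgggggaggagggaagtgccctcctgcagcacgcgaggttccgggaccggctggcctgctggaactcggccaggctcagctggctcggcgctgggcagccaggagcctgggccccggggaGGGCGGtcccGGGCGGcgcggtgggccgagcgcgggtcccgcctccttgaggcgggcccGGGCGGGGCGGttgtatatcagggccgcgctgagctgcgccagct
CDKN1B promoter, chr12:12717118-12717367, plus strand: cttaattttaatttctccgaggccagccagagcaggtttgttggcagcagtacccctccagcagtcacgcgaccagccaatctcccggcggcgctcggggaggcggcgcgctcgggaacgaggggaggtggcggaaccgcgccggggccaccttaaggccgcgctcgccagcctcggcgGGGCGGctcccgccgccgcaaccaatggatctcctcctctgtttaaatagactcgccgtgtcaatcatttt
CDKN2B promoter, chr9:22009306-22009555, minus strand: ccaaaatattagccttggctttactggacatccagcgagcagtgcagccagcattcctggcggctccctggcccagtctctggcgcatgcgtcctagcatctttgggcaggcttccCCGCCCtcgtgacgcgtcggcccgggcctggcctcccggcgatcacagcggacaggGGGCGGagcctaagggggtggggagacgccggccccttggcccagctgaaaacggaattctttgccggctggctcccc
RBL1 promoter, chr20:37095998-37096247, minus strand: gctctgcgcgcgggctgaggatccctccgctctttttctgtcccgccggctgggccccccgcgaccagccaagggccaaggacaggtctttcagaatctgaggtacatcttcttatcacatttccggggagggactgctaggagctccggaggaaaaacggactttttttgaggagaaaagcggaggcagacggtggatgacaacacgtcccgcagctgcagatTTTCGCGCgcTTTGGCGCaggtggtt
The CDKN1A window held 4 GC boxes, the 2 nearest the start sharing a base, with first bases 104, 94, 45 and 40 bases before the start. CDKN2B held 2, at 134 and 78 bases, the first of them on the opposite strand, and CDKN1B held 1, at 71 bases. The RBL1 window held 2 E2F matches, TTTCGCGC and TTTGGCGC, whose first bases lay 26 and 16 bases before the start. RefSeq windows were found for 9 of the 10 genes, 13 windows in all, of which 7 held a GC box and 1 held E2F letters. The only RB1 window (48476200 to 48476449) lay inside the gene, which starts at 48303744, so the sequence before that start was not examined. Of the printed windows, those of CDKN1A and CDKN1B also lay inside their genes, which start at 36676460 and 12685498. RB1 also moved in opposite directions at the 2 doses, and its window is not printed. A CDKN2C window lay wholly within a CDKN2C exon. Of 35116 promoters of the same length, 42.6% held a GC box, 2.79% held E2F letters and 0.122% held at least 2 E2F matches. The letters TTTGAA of the cell cycle homology region, in 13.3% of promoters, were in none of the 13 windows. These matches describe letters in the windows, and binding was not measured.

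Reads assigned to genes ranged from 14834295 to 19674841 per library. The log2 CPM (read counts scaled to library size and TMM scaling factor) correlated at 0.9937 to 0.9953 among libraries of a group. Libraries of different groups correlated at 0.9667 to 0.9874. Of 12 microglia markers 11 stayed below 1 TPM (a transcript level scaled for gene length and library size) in every library, the exception being TREM2, and P2RY12, C1QA and C1QB had no reads in any library. The summed level of this list was 1.31 to 2.1 TPM in VEH, 3.75 to 6.18 with SLO ½ and 4.37 to 4.87 with SLO. The summed level of 8 fibroblast and pericyte markers, most of it COL1A1, was 1418 to 1651 TPM in VEH, 1695 to 1727 with SLO ½ and 2001 to 2091 with SLO. Of these 8, COL3A1 (at most 0.164 TPM) and FAP (at most 0.278) stayed below 1 TPM in every library, and PDGFRA reached at most 1.4. PDGFRB of this list went the other way, at 56.1 to 64.0 TPM in VEH against 39.9 to 43.2 and 47.8 to 51.5 at the lower and the full dose. Astrocyte markers summed to at most 1.72 TPM, and 5 neuron markers to 3.23 to 3.74 TPM in VEH and 6.11 to 6.66 in SLO. The part of these shifts in the results below was not tested. More or fewer cells of a kind cannot be told apart from more or less RNA per cell.

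The transcript that stood out by level was CDKN1A, encoding p21. On the TPM scale it was 175, 144 and 128 in the VEH libraries, 387, 371 and 371 in SLO ½, and 669.7, 669 and 647 in SLO. In VEH its range overlapped that of RB1 (129 to 132 TPM), the next gene in order, whereas in both treated groups every CDKN1A value lay above every value of the other 9 genes. In VEH the order continued with CDKN2A (123 TPM), RBL1 (118) and CDKN2C (109), and the ranges of CDKN2A and RBL1, and of RBL1 and CDKN2C, overlapped. A lower tier of CDKN2B (73.0 TPM), RBL2 (72.2) and CDKN1B (71.5) also overlapped between neighbours, and CDKN1C (21.3) and CDKN2D (17.5) were lowest and overlapped. In SLO only CDKN2B (96.2 TPM) and CDKN2A (95.9) overlapped among neighbours. CDKN2B had thus come level with CDKN2A, CDKN2C (62.2 TPM) had moved below CDKN1B (78.8), and CDKN2D (25.6) had come to lie above CDKN1C (17.2).

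Summed by family, CIP/KIP transcripts were 242 ± 26.8 TPM in VEH, 459 ± 6.62 with SLO ½ and 758 ± 12.3 with SLO (mean ± SD, n = 3 libraries). Without CDKN1A the sums were 92.8 ± 2.82, 82.3 ± 3.48 and 96.0 ± 3.05 TPM. INK4 transcripts summed to 323 ± 20.6 TPM in VEH, 240.0 ± 6.0 with SLO ½ and 279.9 ± 4.5 with SLO. The INK4 family was therefore the more abundant inhibitor family in VEH and the less abundant in both treated groups. CDKN1A alone made up 26.2% ± 2.04 of the TPM of the 7 CDK inhibitors in VEH, 53.9% ± 1.19 with SLO ½ and 63.8% ± 0.79 with SLO. RB family transcripts varied less, at 320.0 ± 10.1, 271 ± 13.0 and 306 ± 8.31 TPM.

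**Figure D1:**
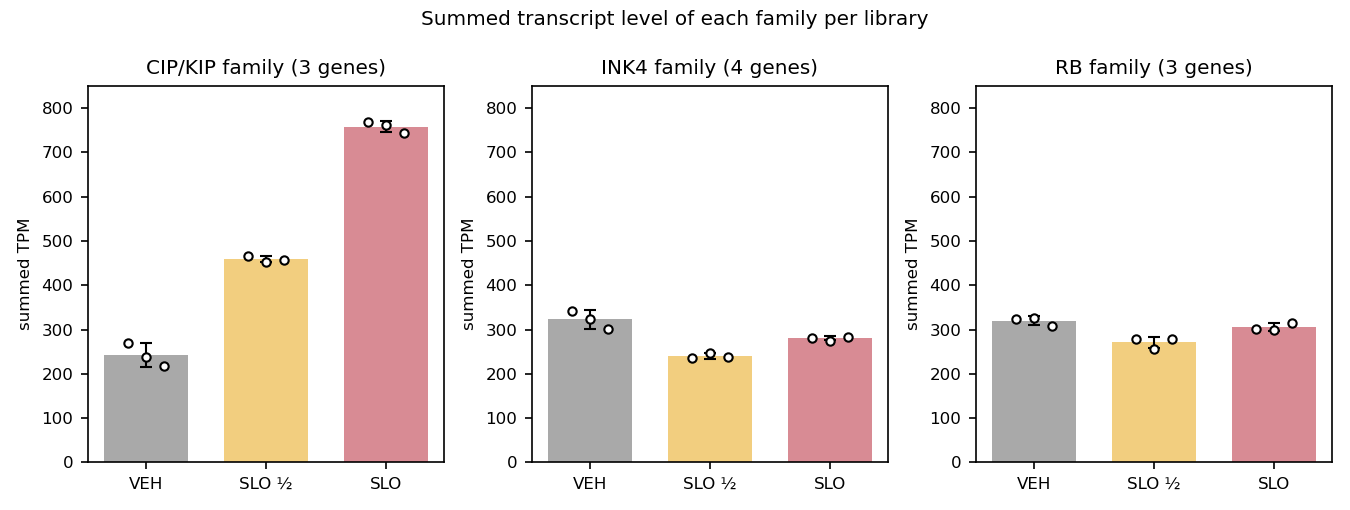
Summed level in TPM (y axis) of the CIP/KIP, INK4 and RB families in VEH, SLO ½ and SLO. Bars are means, error bars SD and points the 3 libraries of each group. The CIP/KIP sum climbed from 242 to 758 TPM, whereas the INK4 and RB sums were lowest in SLO ½.

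Differences between groups were tested with edgeR's quasi-likelihood test and called at an adjusted p below 0.05 over all tested genes, and levels from here on are CPM, which compare groups and not genes. Of the 10 genes, 9 were called in SLO against VEH, where 64.9% of all tested genes were called. CDKN1A, CDKN1B, CDKN2B, CDKN2D and RB1 rose, and CDKN1C, CDKN2A, CDKN2C and RBL2 fell. In SLO ½ against VEH 7 were called, where 52.0% of all genes were, and CDKN1A was the single rise beside falls of CDKN1B, CDKN2A, CDKN2B, CDKN2C, RB1 and RBL2. Between the doses 7 were called against 41.1% of all genes, with CDKN1C lower in SLO and CDKN1A, CDKN1B, CDKN2B, CDKN2D, RB1 and RBL2 higher. This last count was 4 when SLO ½ replicate 3, SLO replicate 2 or SLO replicate 3 was left out, and 5 with DESeq2. All 3 comparisons share libraries, so their counts are not independent.

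Most of these changes were modest. The median absolute log2 fold change of the 10 genes was 0.361 in SLO and 0.248 in SLO ½ against VEH, beside 0.338 and 0.234 over all tested genes. The signed medians were 0.015 in SLO, -0.17 in SLO ½ and 0.20 between the doses, where the medians over all genes were 0.014, 0.015 and -0.0014. Ranges of the 3 libraries did not overlap for 8, 7 and 8 of the 10 genes, where 66.7%, 58.3% and 51.0% of all genes did not overlap. With 3 libraries a group, and no statement in the labels that they came from separate cultures, p-values measure the spread between these libraries, which may be technical.

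**Figure D2:**
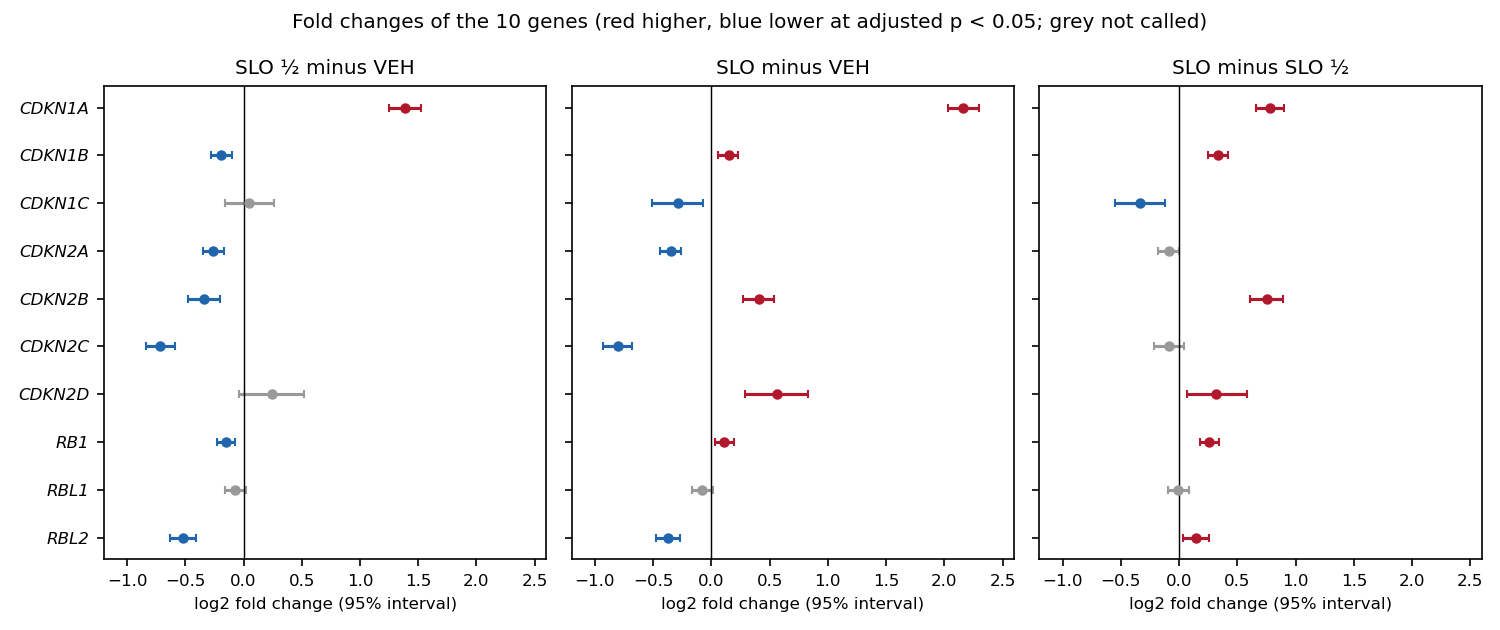
Log2 fold change (x axis) of each of the 10 genes with its 95% interval in SLO ½ minus VEH, SLO minus VEH and SLO minus SLO ½. Red marks genes called higher, blue genes called lower and grey genes not called. CDKN1A lay at 1.39, 2.16 and 0.78, and CDKN1B, CDKN2B and RB1 were left of 0 with SLO ½ and right of 0 with SLO.

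Among the CIP/KIP genes, CDKN1A (ENSG00000124762.14, GRCh38 chromosome 6, 36676460 to 36687337, plus strand) rose at both doses. Its CPM was 112, 91.2 and 80.9 in VEH, 252, 248 and 241 in SLO ½, and 428, 428 and 414 in SLO. The 3 groups did not overlap, and the VEH libraries were the most spread. The fold over VEH was 2.61 in SLO ½ (log2 1.39, SE 0.0643, adjusted p = 1.15e-16) and 4.48 in SLO (log2 2.16, SE 0.0641, adjusted p = 8.79e-22). SLO exceeded SLO ½ by a further 1.72-fold (log2 0.78, SE 0.0594, adjusted p = 1.77e-11), so that 64.0% of the log2 rise was present at the lower dose. Genes with a larger log2 rise numbered 325 in SLO and 534 in SLO ½, of 14727.

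CDKN1B (ENSG00000111276.12, chromosome 12, 12685498 to 12722369, plus strand) encodes p27, which binds cyclin E-CDK2 and is controlled largely by protein turnover. Its CPM was 145.6, 137.7 and 139.0 in VEH, 118.4, 127.2 and 125.1 in SLO ½, and 155.8, 150.6 and 160.8 in SLO. All SLO ½ values were the lowest and all SLO values the highest, without overlap. The change from VEH was -0.19 log2 units in SLO ½ (SE 0.0427, adjusted p = 0.000501) and 0.15 in SLO (SE 0.0423, adjusted p = 0.0036), and the doses differed by 0.33 (SE 0.0425, adjusted p = 2.62e-07).

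CDKN1C (ENSG00000129757.15, chromosome 11, 2883213 to 2885775, minus strand) encodes p57 and is imprinted in humans. It was measured at 11.7, 11.9 and 9.98 CPM in VEH, 10.7, 11.4 and 12.5 in SLO ½, and 10.2, 8.71 and 8.44 in SLO. The highest SLO library lay above the lowest VEH library, so these groups overlapped. The log2 change was -0.29 in SLO against VEH (SE 0.107, adjusted p = 0.0207), 0.049 in SLO ½ against VEH (95% interval -0.16 to 0.26, adjusted p = 0.712) and -0.34 between the doses (SE 0.106, adjusted p = 0.0115). The call in SLO against VEH was lost without VEH replicate 1 (adjusted p = 0.0606), VEH replicate 2 (0.0731), SLO replicate 2 (0.0761) or SLO replicate 3 (0.0859), and with library size only (0.0852). The call between the doses was lost without SLO ½ replicate 3 (0.0695), SLO replicate 2 (0.052) or SLO replicate 3 (0.0613).

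**Figure D3:**
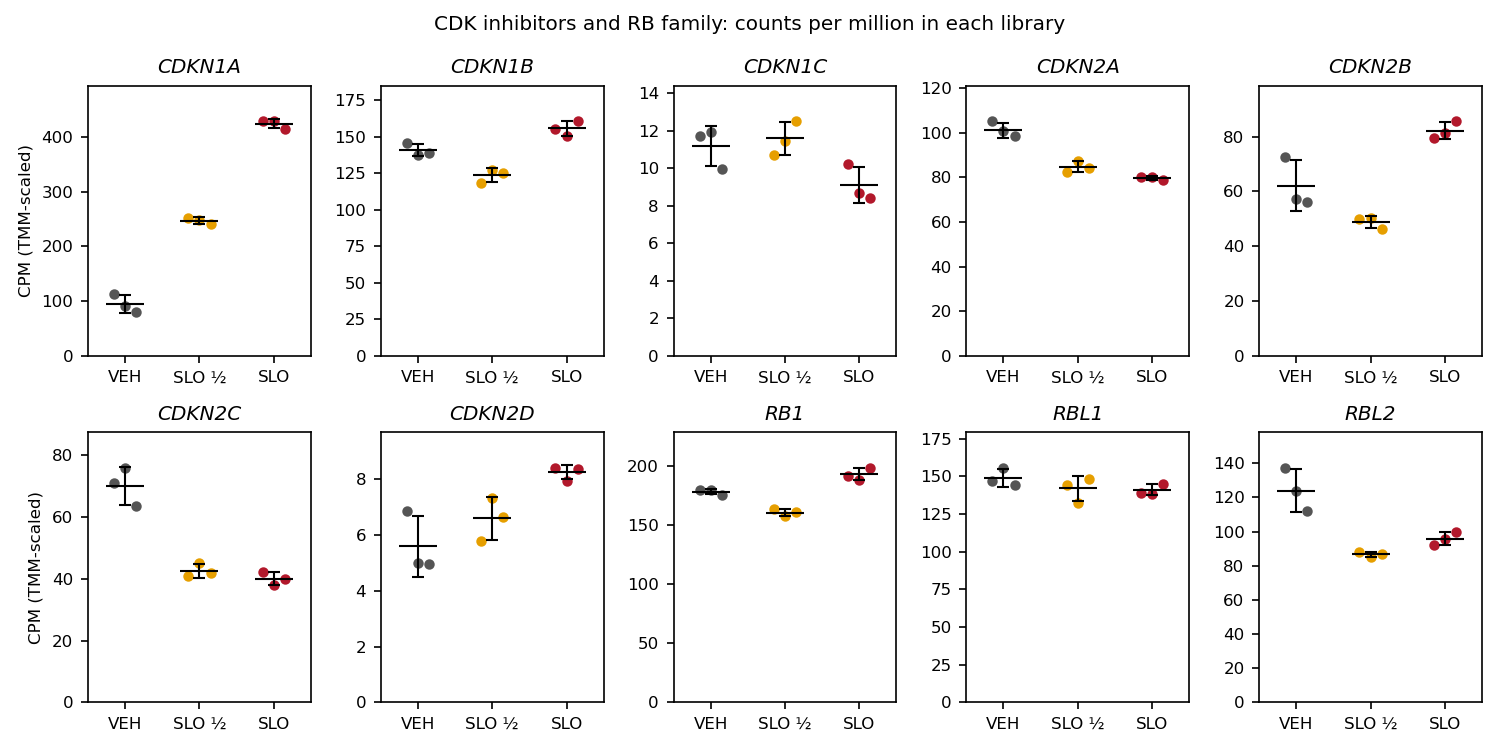
CPM scaled by TMM (y axis, from 0) of each of the 10 genes in the 3 libraries of VEH, SLO ½ and SLO. Points are libraries, long bars group means and error bars SD. CDKN1A separated all 3 groups in order of dose, CDKN2A and CDKN2C dropped at both doses, and CDKN1B, CDKN2B and RB1 were lowest in SLO ½.

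The 4 INK4 genes did not move as a block. CDKN2A and CDKN2C fell at both doses, CDKN2B fell with SLO ½ and rose with SLO, and CDKN2D rose in SLO. CDKN2A (ENSG00000147889.18, chromosome 9, 21967752 to 21995301, minus strand) encodes p16INK4A and, from another first exon and reading frame, ARF, and the count of the gene sums both transcripts. Its CPM was 105, 101 and 98.4 in VEH, 82.5, 87.4 and 84.3 in SLO ½, and 80.1, 80.1 and 78.7 in SLO. Every treated library was below every VEH library. The fall was -0.26 log2 units in SLO ½ (SE 0.0436, adjusted p = 1.3e-05) and -0.35 in SLO (SE 0.0441, adjusted p = 6.77e-08). The difference between the doses was not called (-0.09, 95% interval -0.18 to 0.0015, adjusted p = 0.111).

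CDKN2B (ENSG00000147883.12, chromosome 9, 22002903 to 22009305, minus strand) lies next to CDKN2A and encodes p15, an inhibitor best known as a target of TGF-beta signalling. It was at 72.70, 57.38 and 56.14 CPM in VEH, 49.96, 50.43 and 46.18 in SLO ½, and 79.67, 81.23 and 85.64 in SLO. SLO ½ was lowest and SLO highest without overlap, and VEH replicate 1 stood above the other VEH libraries. The change was -0.34 log2 units in SLO ½ (SE 0.0688, adjusted p = 0.000128), 0.41 in SLO (SE 0.0655, adjusted p = 3.49e-06) and 0.75 between the doses (SE 0.067, adjusted p = 4.02e-10). The difference between the doses in CDKN2B was thus close in size to that in CDKN1A, and 511 genes had a larger one in the same direction.

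CDKN2C (ENSG00000123080.12, chromosome 1, 50960745 to 50974634, plus strand) encodes p18, and it had the largest fall of the 10 genes at both doses. Its CPM was 70.9, 76.0 and 63.7 in VEH, 40.8, 45.2 and 41.8 in SLO ½, and 42.3, 37.9 and 40.1 in SLO. VEH stood clear of both treated groups, which overlapped each other. The log2 change was -0.72 in SLO ½ (SE 0.0605, adjusted p = 6.33e-11) and -0.80 in SLO (SE 0.0616, adjusted p = 2.35e-12), with no call between the doses (-0.089, 95% interval -0.22 to 0.044, adjusted p = 0.29). CDKN2D (ENSG00000129355.7, chromosome 19, 10566460 to 10569059, minus strand), encoding p19, was at 6.86, 4.99 and 4.96 CPM in VEH, 5.79, 7.32 and 6.65 in SLO ½, and 8.41, 7.95 and 8.38 in SLO. SLO lay above both other groups, which overlapped. It rose by 0.56 log2 units in SLO (SE 0.132, adjusted p = 0.000473). In SLO ½ its change was 0.24 (95% interval -0.039 to 0.52, adjusted p = 0.142), which was called without VEH replicate 1 (0.40, adjusted p = 0.0197). Its difference between the doses (0.32, SE 0.127, adjusted p = 0.0419) was lost with DESeq2 (adjusted p = 0.0961), without the filter on low counts (0.0531) and without SLO ½ replicate 1 (0.196), SLO ½ replicate 3 (0.0779), SLO replicate 1 (0.0975), SLO replicate 2 (0.0566) or SLO replicate 3 (0.0972).

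Of the RB family, RB1 and RBL2 moved and RBL1 passed the test in no comparison. RB1 (ENSG00000139687.16, chromosome 13, 48303744 to 48599436, plus strand) encodes the retinoblastoma protein, which binds the activating E2F factors. Its CPM was 179, 179.6 and 176 in VEH, 164, 157 and 160.5 in SLO ½, and 191, 188 and 198 in SLO. SLO ½ was lowest and SLO highest, again without overlap, but the distances were small. The log2 change was -0.15 in SLO ½ (SE 0.0392, adjusted p = 0.00188), 0.11 in SLO (SE 0.039, adjusted p = 0.0133) and 0.26 between the doses (SE 0.0391, adjusted p = 3.1e-06). The call in SLO against VEH was lost without VEH replicate 3 (adjusted p = 0.0527), without SLO replicate 3 (0.0894) and without the filter (0.12).

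RBL1 (ENSG00000080839.12, chromosome 20, 36996349 to 37095997, minus strand) encodes p107, the pocket protein that is itself an E2F target. Its CPM was 147, 156 and 144 in VEH, 144, 132 and 148 in SLO ½, and 139, 138 and 145 in SLO. All groups overlapped. Its log2 change was -0.082 in SLO (95% interval -0.17 to 0.011, adjusted p = 0.113), -0.072 in SLO ½ (-0.16 to 0.02, adjusted p = 0.184) and -0.0099 between the doses (-0.10 to 0.083, adjusted p = 0.881). RBL2 (ENSG00000103479.17, chromosome 16, 53433977 to 53491648, plus strand) encodes p130, the pocket protein of the DREAM complex in quiescent cells. It was measured at 137, 124 and 112 CPM in VEH, 87.9, 85.3 and 87.0 in SLO ½, and 92.3, 95.7 and 99.6 in SLO. Both treated groups lay below VEH, and SLO ½ lay below SLO. RBL2 fell by 0.52 log2 units in SLO ½ (SE 0.0535, adjusted p = 3.1e-09) and by 0.37 in SLO (SE 0.0533, adjusted p = 4.97e-07). The doses differed by 0.14 (SE 0.0547, adjusted p = 0.0353), a call lost with DESeq2 (adjusted p = 0.0546) and without SLO ½ replicate 1 (0.057), SLO ½ replicate 2 (0.11), SLO ½ replicate 3 (0.0751), SLO replicate 2 (0.0695) or SLO replicate 3 (0.154).

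Genes on a written list of neighbours that lie within 50 kb were examined because several of the 10 genes overlap others on the opposite strand, which the strand-specific counts keep apart. At the INK4 locus CDKN2B-AS1, the antisense RNA that overlaps both CDKN2A and CDKN2B, fell from 15.7 ± 1.84 CPM in VEH to 10.8 ± 0.424 in SLO ½ (log2 -0.54, SE 0.103, adjusted p = 6.51e-05) and 10.3 ± 1.66 in SLO (-0.60, SE 0.105, adjusted p = 1.38e-05). MTAP, a methionine salvage enzyme gene 30101 bases from CDKN2A, changed by -0.23 and -0.30 (adjusted p = 4.24e-05 and 4.73e-07). CDKN2A, CDKN2B-AS1 and MTAP therefore all fell in SLO, where CDKN2B, beside them, rose. FAF1, which starts 478 bases from CDKN2C on the other strand, fell with it, by 0.50 with SLO ½ and 0.65 with SLO (adjusted p = 4.35e-10 and 9.11e-13). Near CDKN2D, KRI1 fell by 0.25 and 0.53 (adjusted p = 0.000559 and 7.13e-09) and AP1M2 was not called (0.034 and -0.0049, adjusted p = 0.811 and 0.971).

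Of the listed neighbours of the other genes, those tested rose in SLO apart from AKTIP. ITM2B, 33387 bases from RB1, rose by 0.62 log2 units with SLO ½ and 1.01 with SLO (adjusted p = 3.62e-13 and 1.36e-18). Near CDKN1C, PHLDA2 rose by 0.73 and 0.80 (adjusted p = 1.83e-06 and 2.35e-07) and SLC22A18, at 1.69 to 3.1 CPM in group means, by 0.86 and 0.80 (adjusted p = 0.000697 and 0.00135). SAMHD1, a dNTP hydrolase gene 44456 bases from RBL1, rose by 0.92 and 0.65 (adjusted p = 1.21e-14 and 8.84e-12). At CDKN1B, APOLD1 rose in SLO by 0.67 (adjusted p = 2.66e-08) but not in SLO ½ (0.075, adjusted p = 0.487), and GPR19 rose by 0.76 at each dose from 1.11 CPM (adjusted p = 0.00958 and 0.00768). AKTIP, antisense to the end of RBL2, changed by -0.32 and -0.21 (adjusted p = 0.00423 and 0.0486). The latter call was lost in 13 of 18 alternatives, with adjusted p up to 0.229: all but DESeq2 size factors among the other fits and filters (0.0534 to 0.204), and without VEH replicate 1 (0.121), VEH replicate 3 (0.0734), SLO ½ replicate 1 (0.052), SLO replicate 1 (0.0659) or SLO replicate 2 (0.229). Another 7 tested genes within 50 kb were not on the list. Of these RCBTB2, which overlaps RB1 on the other strand, rose by 0.42 and 0.71 (adjusted p = 0.00351 and 3.21e-06), SLC44A2, near CDKN2D, rose by 0.23 in SLO (adjusted p = 0.00044) and CREBL2, near CDKN1B, changed by -0.37 and -0.24 (adjusted p = 5.39e-07 and 0.000124). The other 4, MROH8, ATG4D, S1PR5 and ENSG00000279722, were not called. PANDAR, CDKN2A-DT, LPAR6, RB1-DT and KCNQ1 had at most 3 reads in any library and were not tested.

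The genes around these inhibitors were followed in 8 lists of 105 genes in all, some on more than 1 list, of which 103 were tested. In SLO against VEH 24 rose and 53 fell, beside 32.9% and 32.1% of all tested genes, with a median log2 change of -0.14. In SLO ½ 21 rose and 50 fell, beside 26.7% and 25.3%, also with a median of -0.14. Between the doses 22 were higher and 34 lower in SLO, beside 20.8% and 20.3%. These splits varied with the processing. With library size only, 33 rose and 45 fell in SLO against VEH, and with limma on log2(TPM + 1) 27 were higher and 26 lower between the doses.

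In a list of cyclins, CDKs and genes that act on them, 5 of 19 tested genes rose and 8 fell in SLO, or 7 and 6 with library size only. The cyclins and CDKs themselves split evenly, as CCND3, CDK6, CCNE1 and CCNE2 rose and CDK4, CCNA2, CCNB1 and CCNB2 fell. The remaining calls were a rise of CDC25B and falls of MNAT1, CDC25A, CDC25C and WEE1. CCNE1, the cyclin of CDK2 at the G1/S boundary, rose from 11.7 ± 0.356 CPM in VEH to 20.1 ± 1.34 with SLO ½ and 21.8 ± 1.09 with SLO (log2 0.78 and 0.90, adjusted p = 4.34e-09 and 9.12e-11). The mitotic cyclins CCNB1 and CCNB2 fell in SLO by 0.78 and 0.46 log2 units (adjusted p = 3.82e-16 and 4.17e-10), and in SLO ½ by 0.30 and 0.24. The INK4 targets were chosen for mention after their values were seen. CDK4 fell from 136 CPM in VEH to 111 with SLO ½ and 103 with SLO (adjusted p = 5.27e-07 and 7.56e-10), whereas CDK6 rose from 311 in VEH to 444 in SLO (adjusted p = 5.32e-10). CCND2 and CCNA1 had too few reads to be tested.

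Downstream of the RB family, 2 of 10 E2F and DP factor genes rose and 5 fell in SLO. E2F8, a repressor that acts late in S phase, fell by 0.64 log2 units with SLO ½ and 1.19 with SLO (adjusted p = 7.84e-08 and 5.89e-13), and the activator E2F2 fell by 0.68 and 0.87 (adjusted p = 2.61e-05 and 7.29e-07). E2F1, the best known activator, went the other way in SLO (0.28, adjusted p = 2.13e-06). Of 24 E2F target genes 7 rose and 16 fell in SLO, and 3 rose and 14 fell in SLO ½, or 6 and 14 with library size only. The larger rises in SLO were CCNE1 (0.90 log2 units), MYBL2 (0.66), CCNE2 (0.29) and E2F1 (0.28), which are also on other lists. The falls with the smallest p were in replication genes, while CDC6, PCNA and TYMS, also of replication and chosen for mention after their values were seen, rose by 0.23, 0.10 and 0.10 in SLO (adjusted p = 2.32e-05, 0.0279 and 0.0281). MCM6, of the replicative helicase, went from 228 ± 6.9 CPM in VEH to 119.6 ± 1.46 with SLO ½ and 112 ± 5.29 with SLO (log2 -0.93 and -1.02, adjusted p = 5.04e-17 and 2.21e-18). POLA1, the catalytic subunit of the priming polymerase, fell by 0.79 and 0.97 (adjusted p = 5.76e-15 and 2.45e-17), and MCM5 by 0.43 and 0.72 (adjusted p = 3.88e-10 and 3.54e-15).

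The DREAM and MuvB list held subunits of the complex that RBL2 and RBL1 join, and also MYBL1, MYBL2, FOXM1 and DYRK1A. Of its 9 genes 2 rose and 5 fell in SLO, or 3 and 3 with library size only. The rises were MYBL2, encoding B-Myb, which replaces the pocket proteins on MuvB in cycling cells (353 ± 16.6, 474 ± 12.5 and 559 ± 9.91 CPM in VEH, SLO ½ and SLO, adjusted p = 8.96e-10 and 2.28e-14), and MYBL1 (0.39 in SLO, adjusted p = 3.58e-09). LIN52, the MuvB subunit that contacts the pocket proteins, fell by 0.31 and 0.43 (adjusted p = 0.000185 and 1.46e-06). Of 10 corepressor genes that act with RB1, 1 rose and 6 fell in SLO, or 4 and 5 with library size only. SIN3A changed by -0.51 with SLO ½ and -0.55 with SLO (adjusted p = 4.97e-11 and 2.93e-12), the histone methyltransferase gene SUV39H1 by -0.40 and -0.69 (adjusted p = 4.23e-05 and 6.96e-09) and the chromatin remodeller SMARCA4 by -0.24 and -0.35 (adjusted p = 1e-05 and 1.24e-08).

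Upstream of the inhibitors, 12 genes of the turnover of CIP/KIP proteins, ligase components and the cofactor PCNA, were counted, and 3 rose (SKP1, PCNA and RNF123) and 6 fell in SLO, or 1 and 6 without the filter on low counts. CDC20, the mitotic activator of the anaphase-promoting complex, fell by 0.54 in SLO (adjusted p = 5.39e-12), and CUL4A and DDB1, of the ligase that degrades p21 in S phase, fell by 0.46 and 0.32 (adjusted p = 2.86e-10 and 1.41e-08). DTL, the substrate receptor of that ligase, fell in SLO ½ (-0.23, adjusted p = 3.84e-05) but was at 163 ± 6.11 CPM in SLO beside 160.3 ± 1.73 in VEH (0.025, adjusted p = 0.602). Of 10 chromatin regulators of the INK4 locus, the Polycomb genes with the demethylases KDM2B and KDM6B, 6 fell at each dose and 0 rose, where 0 also rose at an unadjusted p below 0.05 and with DESeq2. EZH2, the H3K27 methyltransferase, went from 129 ± 2.77 CPM to 98.7 ± 3.99 with SLO ½ and 83.7 ± 4.79 with SLO (adjusted p = 3.58e-08 and 1.31e-12). KDM2B fell by 0.46 in SLO (adjusted p = 2.76e-08), and KDM6B, a demethylase that removes the EZH2 mark, by 0.71 (adjusted p = 1.43e-08), so the falls include a gene that acts against Polycomb.

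Of 18 regulators of CDK inhibitor genes, MDM2 beside transcription factors, 9 rose and 5 fell in SLO, and 9 rose and 7 fell in SLO ½. MDM2, an E3 ubiquitin ligase gene, rose from 165 ± 9.52 CPM in VEH to 338 ± 14.8 with SLO ½ and 423 ± 5.45 with SLO (log2 1.03 and 1.36, adjusted p = 1.87e-17 and 9.58e-21). ID1, a repressor of CDKN2A transcription, rose from 31.5 ± 2.86 CPM to 50.2 ± 4.88 and 74.1 ± 4.68 (adjusted p = 4.28e-09 and 1.63e-15). MYC, which represses CDKN1A and CDKN2B, fell from 122 ± 6.32 CPM to 78.5 ± 4.03 and 73.5 ± 2.29 (adjusted p = 6.35e-12 and 1.1e-13).

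**Figure D4:**
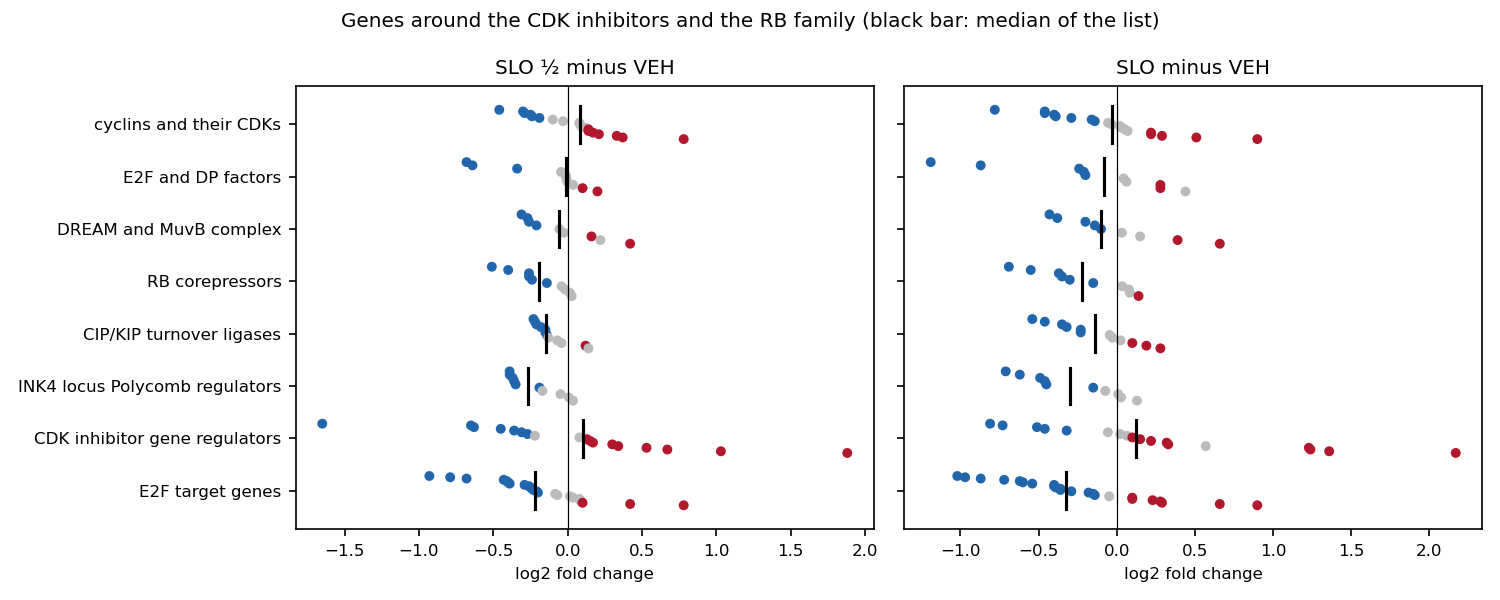
Log2 fold change (x axis) of the tested genes in each of the 8 pathway lists, SLO ½ minus VEH on the left and SLO minus VEH on the right. Each point is a gene, red called higher, blue called lower and grey not called, and the black bar is the median of the list. The E2F target list had medians of -0.22 and -0.32 and the list of INK4 locus regulators of -0.27 and -0.30, while the list of CDK inhibitor gene regulators had medians of 0.10 and 0.13.

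The genes whose log2 CPM followed CDKN1A and CDKN2C most closely over the 9 libraries were taken from the 10942 genes whose average log2 CPM, as edgeR computes it over the 9 libraries, reached 2. For CDKN1A these were NGFR (r = 0.9979, at 1.09 CPM in VEH and 9.0 in SLO), LGMN (0.9972) and LRATD2 (0.9972), and 821 genes had r above 0.95. For CDKN2C they were HCFC1 (r = 0.9874), DDIT4 (0.9866) and KAT6B (0.9858), and 351 genes had r above 0.95. These correlations describe 9 libraries that fall into 3 groups, and any gene that separates the groups in the same order scores high.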

How the data were processed

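RNA of HMC3 cells was sequenced from 9 polyadenylated-RNA libraries (KAPA RNA HyperPrep). Per the labels and the methods, the authors trimmed with Trimmomatic 0.38, used STAR 2.7.1a for alignment to GRCh38 and counted reads per gene and strand. The deposited counts are whole numbers without normalization, and the authors also deposited TPM. Lines without a gene were left out of library sizes: unmapped reads (0.883% to 0.984%), reads with several places (7.16% to 8.52%), outside genes (5.54% to 8.38%) or ambiguous (3.03% to 3.26%). Groups were read from the sample titles and treatments. The annotation release is not given in the sources used here, and the start and end of the 10 genes equal those in GENCODE release 44.

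The analysis used edgeR 4.0.16 under R 4.3.3: filterByExpr (14727 genes kept of 32299 with a count), TMM scaling (0.9678 to 1.035), a quasi-likelihood fit of group over 9 libraries and Benjamini-Hochberg adjustment over all tested genes. The biological coefficient of variation was 3.76%. SE were derived from log2 fold change and F. The prior count for log2 CPM in correlations was 2. In simulated data (SLO against VEH, 14727 genes), the fit recovered 89 of 100 genes changed by 0.5 log2 units and 99 of 100 changed by 1. Only these genes were changed, all were well counted, and the simulated spread came from the same fit. In the real data 64.9% of tested genes were called, so recovery there may differ. Alternatives were DESeq2 1.42.0, its size factors, library size only, 2 other filters, limma 3.58.1 on log2(TPM + 1) or log2(TPM + 0.1), a fit of only the compared groups, a block for replicate number, and leaving out each library. The 10 genes and the lists were chosen with earlier results of these data known. Named list genes were, per list, the 3 with the smallest p in SLO and the 1 with the smallest in SLO ½ against VEH. Genes of a written list of neighbours that lie within 50 kb were named, as were the 3 genes most correlated with the 2 genes of smallest p. Depth limits precision most for CDKN1C and CDKN2D, the least abundant genes. Promoters came from RefSeq, GRCh38.p14.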

Additional observations from a re-analysis of the deposited data

Results flagged for a closer look

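For 4 of the 10 genes, beside 9.46% of all tested genes, the log2 changes of the 2 doses against VEH had opposite signs and the doses differed when compared directly. The log2 difference, SLO minus SLO ½, was 0.75 for CDKN2B, 0.33 for CDKN1B and 0.26 for RB1, each below VEH in SLO ½ and above it in SLO in all 3 libraries of each group. These 3 genes were also called in all 3 comparisons. Opposite signs together with a call in all 3 comparisons were found in 0.937% of all tested genes. The call of RB1 in SLO against VEH was lost without VEH replicate 3 or SLO replicate 3. The difference was -0.34 for CDKN1C, whose value in SLO ½ against VEH (0.049) was not called and turned in direction without VEH replicate 3 or SLO ½ replicate 3. Its difference between the doses was not called without SLO ½ replicate 3, SLO replicate 2 or SLO replicate 3. The reason for these differences was not tested.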

How the results depend on the processing

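Each of the 30 comparisons of the 10 genes was recomputed under 18 alternatives. In 22 of them every alternative kept the direction and the side of the threshold, and no called comparison turned in direction. Of 540 recomputed values 24 lost a call, 1 gained one and 8 turned in direction, all of the last in comparisons that were not called. CDKN1C in SLO ½ against VEH turned to -0.038 without VEH replicate 3 and -0.013 without SLO ½ replicate 3. RBL1 between the doses (-0.059 to 0.026 over all alternatives) turned to 0.015 with library size only, 0.026 with limma on either TPM scale, 0.0019 without SLO ½ replicate 1, 0.025 without SLO ½ replicate 3 and 0.0041 without SLO replicate 2. The number of the 10 genes called between the doses ranged from 4 to 7 when each library was left out. The cause of these changes was not tested, and the fits with a library left out also had fewer libraries. For the 103 pathway genes, 77 were called in SLO against VEH, of which 31.2% rose, or 42.3% with library size only. Between the doses 39.3% of calls were rises, or 50.9% with limma on log2(TPM + 1). Library size only moved the median of all genes by at most 0.075 log2 units. With the replicate number as a block, 9, 7 and 7 of the 10 genes and 77, 72 and 58 pathway genes were called, beside 77, 71 and 56 without it. Same-numbered libraries correlated in their deviations at 0.00277 to 0.0873 in 9 pairs, 0 of them over 0.1, so the numbers were not taken to pair the libraries.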
